A study of Mus musculus with 30 samples.

Results

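Cohesin regions that were called with a single antibody, and called with that same antibody in both of the NIH3T3 lines studied, numbered 4863 of 146915 merged regions on chromosomes 1 to 19 (3.31%). The 6 cohesin peak lists (SMC1, RAD21 and SMC3, each in empty-vector and in BORIS cells) were merged, with overlapping or touching regions joined. Members were chosen by their calls: a merged region was kept when exactly 2 lists called it, these being the empty-vector and the BORIS list of the same subunit. This gave 2841 SMC1-only regions (1.93% of merged regions), 572 RAD21-only regions (0.389%) and 1450 SMC3-only regions (0.987%). By contrast, 50858 merged regions were called in all 6 lists and 36992 in 1 list. Since the members were selected on the calls of these lists, their numbers, strengths, local backgrounds and widths are a description of the libraries and not evidence for the class.

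Of the 30 mouse samples in the series, with 1 sample per group, the peak lists of 8 ChIP-seq samples were used. NIH3T3 is an immortalized fibroblast line from mouse embryos. The control line (empty vector, EV) stably carried a CpG-free plasmid that expresses beta-galactosidase, and the other line stably expressed BORIS from a CpG-free plasmid and was 1 clone (clone 2). Both lines were crosslinked with formaldehyde and precipitated with antibodies against SMC1, RAD21 or SMC3. In addition, 2 lists of Snf2h, the ATPase of ISWI nucleosome remodellers, came from CH12, a mouse B lymphoma line. The wild-type CH12 cells carried no vector, and the mutant CH12 cells carried a homozygous Cas9-made deletion of zinc fingers 9 to 11 of CTCF. With 1 library per group, no difference below has a replicate check and none was tested.

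Cohesin is a ring complex. SMC1 and SMC3 are long coiled-coil ATPases that pair through their hinges, and the kleisin RAD21 bridges their heads and closes the ring. The complex holds sister chromatids together after replication and extrudes chromatin loops in interphase, and it collects where CTCF, a zinc-finger DNA-binding protein, blocks its movement. BORIS (CTCFL) is a paralogue of CTCF that is normally expressed in the male germ line and has a closely similar zinc-finger array. Because the subunits belong to the same ring, ChIP against any of them is generally used to map the same complex.

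The lists used on chromosomes 1 to 19 held 104020 SMC1 regions in EV cells and 100107 in BORIS cells, 82401 and 80268 RAD21 regions, and 98604 and 105041 SMC3 regions. The RAD21 lists were thus the shortest, which bears on every count of regions that lack RAD21. The lowest local background of a list, taken here as the average number of fragments over a genome position, lay between 0.908 (RAD21 in EV cells) and 1.03 (SMC3 in EV cells), so the 6 libraries were of similar depth by this measure. The lists give no total number of reads. All intervals below are exact (Clopper-Pearson) 95% binomial intervals for counting error alone, and neighbouring regions are not independent of each other.

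A region can be called in exactly 2 of 6 lists in 15 ways, and 19659 merged regions were. The single-subunit regions made up 24.7% of them (24.1 to 25.3). Regions called with 2 subunits in the same line made up 60.5% (59.8 to 61.2), and regions called with 2 different subunits in different lines made up 14.7% (14.2 to 15.2). The most frequent pair was SMC1 with SMC3 in BORIS cells (4906 regions), followed by the same pair in EV cells (3170). SMC1 in both lines came next with 2841, then SMC3 in both lines with 1450, whereas RAD21 in both lines was in place 10 of 15 with 572. There are 6 pairs of lists from the same line and 3 from the same subunit, so the larger share of same-line regions also reflects the larger number of pairs.

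**Figure D1:**
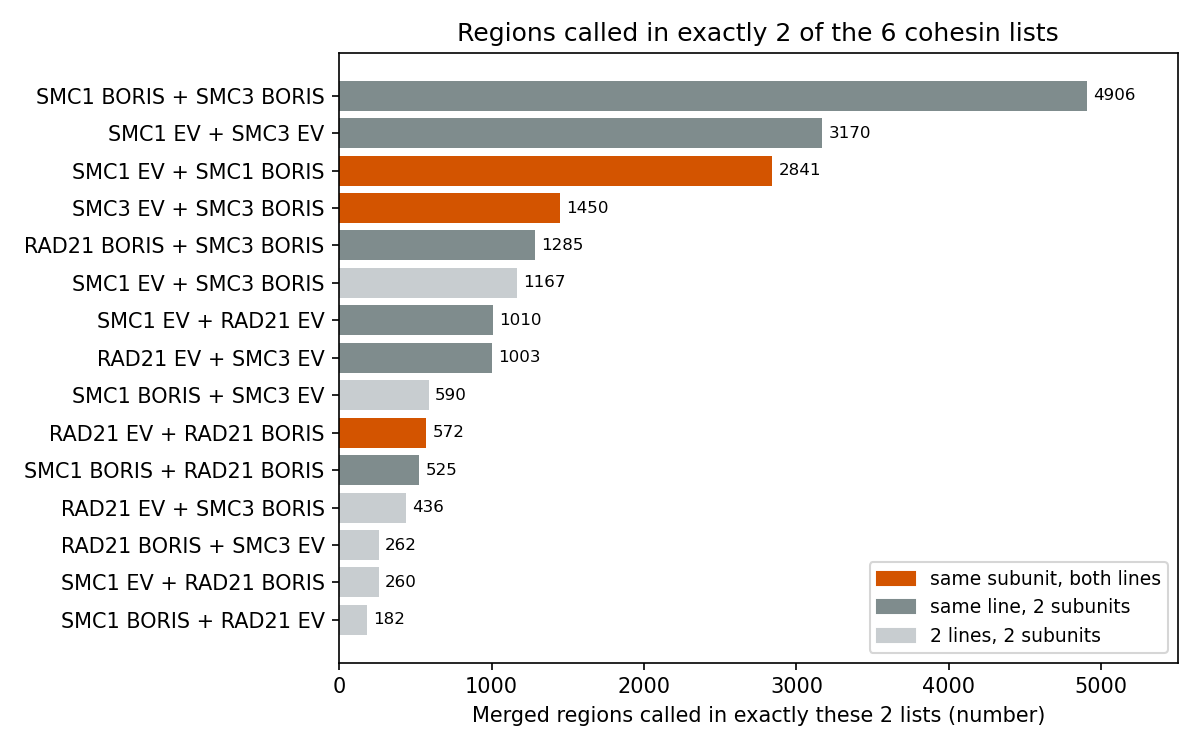
Number of merged regions called in exactly 2 of the 6 cohesin lists (horizontal axis, linear from 0), for each of the 15 pairs of lists (rows), coloured by what the lists share. Pairs of the same subunit hold 2841, 1450 and 572 regions, and the highest bars, 4906 and 3170, are SMC1 with SMC3 in the same line.

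The number of regions depended on the lists as a whole. With every list, the subunit's own included, cut to the length of the shortest (82235 regions by rank of −log10 p) there were 1815 SMC1-only, 1218 RAD21-only and 791 SMC3-only regions, so that the order of RAD21 and SMC3 was reversed. These overlapped 876, 552 and 456 of the members, so many were other regions. Leaving out lists of other subunits also changed the counts. Without the SMC3 lists, 8916 regions would count as SMC1-only. Without the SMC1 lists, 6560 would count as SMC3-only. Without the RAD21 lists the counts were 3706 for SMC1 and 2810 for SMC3. SMC1 and SMC3 calls thus accompanied each other at many regions that had no RAD21 call.

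The most frequent counterpart of a region called with a single antibody in a line was no call at all in the other line. Of 18284 regions called with SMC1 alone in EV cells, 57.7% (56.96 to 58.40) had no cohesin call in BORIS cells, 15.5% (15.02 to 16.07) were again SMC1 alone, and 17.7% (17.1 to 18.2) had SMC1 together with another subunit. For RAD21 alone in EV cells (5307 regions), 56.5% had no call in BORIS cells, 10.8% were again RAD21 alone, and 16.8% had RAD21 with another subunit. For SMC3 alone in EV cells (11796 regions), these shares were 52.8%, 12.3% and 26.6%. In the other direction, 46.6% of the 13252 regions with SMC1 alone in BORIS cells had no call in EV cells, against 43.0% for RAD21 and 57.3% for SMC3, and 21.4% (20.7 to 22.1) were SMC1 alone in EV cells too. The last share was 12.4% (11.5 to 13.4) for RAD21 and 9.18% (8.73 to 9.64) for SMC3. Counting each region called with 1 subunit and no other in either line once, 14.5% (14.03 to 15.02) of such SMC1 regions, 10.3% (9.51 to 11.1) of RAD21 regions and 8.67% (8.24 to 9.10) of SMC3 regions were called in both lines.

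The full set of subunits recurred far more often than a single subunit. Of the regions called with SMC1, RAD21 and SMC3 in at least 1 line, 67.0% (66.6 to 67.3) had all 3 in both lines. The same share was 9.90% (9.56 to 10.3) for SMC1 alone, 6.12% (5.65 to 6.63) for RAD21 alone and 5.55% (5.27 to 5.83) for SMC3 alone. For sets of 2 subunits it was 9.73% for SMC1 with SMC3, 5.30% for RAD21 with SMC3 and 2.55% for SMC1 with RAD21. Set against all regions with the given subunit in both lines, single-subunit regions were a small part of each, namely 3.92% (3.78 to 4.07) of 72391 for SMC1, 0.963% (0.886 to 1.04) of 59394 for RAD21 and 1.98% (1.88 to 2.09) of 73076 for SMC3.

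Single-subunit regions were weak in their own lists. The fold is the authors' ratio of signal to local background at the summit of a region, where read density is highest, and the pileup is the number of fragments over the summit that the fold and the p-value imply. For SMC1-only regions the median fold was 4.81 in EV cells (middle 50% of regions 4.07 to 5.75) and 4.48 in BORIS cells (3.86 to 5.27). Regions called in all 6 lists had median SMC1 folds of 12.5 and 9.72. The median pileup of SMC1-only regions was 14 fragments in EV cells and 13 in BORIS cells, against 37 and 30 fragments at regions called in all 6 lists.

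For RAD21-only regions the median fold was 5.65 in EV cells (4.62 to 6.79) and 5.20 in BORIS cells (4.51 to 5.95), against 13.2 and 10.3 for RAD21 at regions called in all 6 lists. Their median pileup was 13 and 12 fragments, against 36 and 28. For SMC3-only regions the median fold was 4.75 (4.01 to 5.63) and 4.82 (4.03 to 5.67), against 13.8 and 11.4, and the median pileup was 13 fragments in both lines, against 40 and 34. The median fold at single-subunit regions was thus lower than at fully called regions in each of the 6 lists.

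Ranked by −log10 p within the own list, the median percentile was 25.9 in EV and 19.2 in BORIS cells for SMC1-only regions, 28.8 and 23.9 for RAD21-only regions, and 21.8 and 22.1 for SMC3-only regions. Regions called in all 6 lists had median percentiles between 67.6 and 75.2. None of the members (0 in each list) reached the strongest 10% of a list. The highest percentile was 85.1 among SMC1-only, 77.2 among RAD21-only and 73.9 among SMC3-only regions. In both of their lists, a −log10 q of 10 or more was reached by 77 SMC1-only regions (2.71%, 2.14 to 3.38), against 55.1% of all regions with SMC1 in both lines. It was reached by 31 RAD21-only regions (5.42%, 3.71 to 7.60), against 60.4% with RAD21 in both lines. For SMC3 these were 17 regions (1.17%, 0.684 to 1.87), against 57.2%. At the lower end, 21.9% of SMC1-only, 9.79% of RAD21-only and 20.6% of SMC3-only regions had a −log10 q under 3 in at least 1 of their lists, against 4.01%, 2.7% and 4% of all regions called in both lists of the subunit. The lowest value of any list was 1.30, that of a q of 0.05. Since the rule used these calls, nothing is read from these differences.

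**Figure D2:**
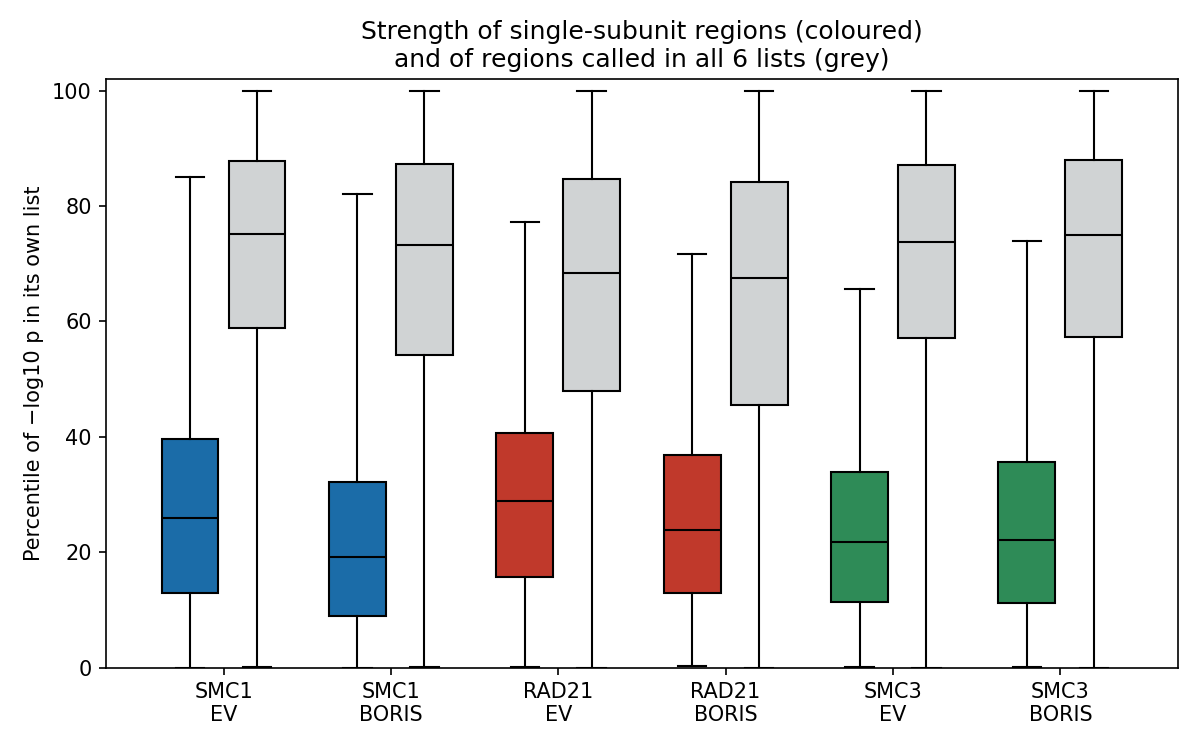
Percentile of −log10 p within the own list (vertical axis, 0 to 100), for single-subunit regions (coloured) and regions called in all 6 lists (grey), in each of the 6 lists. Boxes span the middle 50% of regions with the median as a line, and whiskers reach the lowest and highest region. The medians of the coloured boxes lie between 19.2 and 28.8, and those of the grey boxes between 67.6 and 75.2.

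The regions were narrow. The median merged width was 242 bp for SMC1-only, 187 bp for RAD21-only and 179 bp for SMC3-only regions, against 458 bp for regions in all 6 lists. Other regions in exactly 2 lists, which join the same number of lists, had a median of 187 bp. A merged width of at least 500 bp was found in 67 SMC1-only regions (2.36%, 1.83 to 2.99), 35 RAD21-only regions (6.12%, 4.30 to 8.41) and 19 SMC3-only regions (1.31%, 0.791 to 2.04), against 17.6% of all merged regions and 0.629% of the other 2-list regions. The interval of RAD21-only regions lies above those of SMC1-only and SMC3-only regions. A width of at least 1 kb was reached by 2 SMC1-only (0.0704%) and 7 RAD21-only regions (1.22%), and by 0 of 1450 SMC3-only regions. The share was 7.18% of regions in all 6 lists.

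In all 3 subunits the regions at least 500 bp wide had a higher median pileup at the summit than the members as a whole. The median pileup of the wide SMC1-only regions was 19 fragments in EV and 16 in BORIS cells, and that of the wide SMC3-only regions was also 19 and 16. Across the 35 RAD21-only regions that were at least 500 bp wide, the median pileup was 21 fragments in EV cells (12 to 61) and 15 in BORIS cells (8 to 33). Of the 7 that reached 1 kb, 2 were neighbours on chromosome 2, at chr2:26875133-26876149 and chr2:26876664-26877941. The first had a RAD21 pileup of 17 fragments in EV and 15 in BORIS cells, and the second 15 and 8. The nearest region of another subunit lay 1.42 kb from the first.

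The peaks of the lines fell close together inside these regions. The median distance between the EV and the BORIS summit was 43 bp for SMC1-only regions (middle 50% of regions 19 to 76), 26 bp for RAD21-only regions (11 to 49) and 29 bp for SMC3-only regions (12 to 52). Summits lay within 50 bp of each other in 56.7%, 76.2% and 73.3% of regions. At regions called in all 6 lists the medians were 16 bp for SMC1 and 15 bp for both RAD21 and SMC3. Because calls of the lines had to overlap, the width of a region bounds this distance. The shared stretch was a median of 62.1% of the joint length of both peaks for SMC1-only, 68.9% for RAD21-only and 68.4% for SMC3-only regions.

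RAD21 and SMC3 summits lay farther apart at fully called regions of similarly low rank than at members. This comparison was chosen after seeing the data. Rank here is the lower of the EV and BORIS percentiles in the own lists. Regions called in all 6 lists whose rank fell in the middle 50% of the members' ranks had median summit distances of 30 bp (SMC1), 38 bp (RAD21) and 48 bp (SMC3). The members of the same ranks had 43 bp, 24 bp and 28 bp. The summits of RAD21-only and SMC3-only regions were therefore closer than at these fully called regions. The match in rank was rough. In percentiles among all regions called in both lists of the subunit, the fully called regions had medians of 13.9 in EV and 14.3 in BORIS cells for RAD21. The members had 12.4 and 11.9. For SMC3 the medians were 12.8 and 12.2, beside 9.53 and 10.8 for the members. For SMC1 the match failed in EV cells, with 21.5 for the fully called regions against 9.71 for the members (12.3 and 10.7 in BORIS cells), so the SMC1 values are not set against each other. The median widths differed too, with 176.5 bp against 428 bp for RAD21, 178 bp against 444 bp for SMC3 and 237 bp against 316 bp for SMC1, and their part in the difference was not tested.

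The order of the members by strength in EV cells was only loosely that in BORIS cells. Across SMC1-only regions the Spearman correlation of −log10 p between the lists was 0.254 (n = 2841 regions), across RAD21-only regions 0.326 (n = 572) and across SMC3-only regions 0.260 (n = 1450). At regions called in all 6 lists it was 0.817, 0.892 and 0.869 (n = 50858). The single-subunit regions cover a much narrower range of strength, and regions of a library share its depth. In contrast, the local background correlated at 0.844, 0.904 and 0.888 across the same members. Among all regions called in both lists of a subunit, which gives equal sets to rank, the median percentile of members was 12.3 in EV and 11.9 in BORIS cells for SMC1, 14.8 and 13.9 for RAD21, and 11.3 and 12.3 for SMC3.

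The strongest members are given individually, being those with the highest value of the lower of their 2 percentiles and no region of another subunit within 1 kb (1702 SMC1-only, 438 RAD21-only and 900 SMC3-only regions qualified). None of the other 4 cohesin lists called them. The leading SMC1-only region was chr11:107645447-107646745, 1299 bp wide, with an SMC1 fold of 20.3 and a pileup of 54 fragments in EV cells and a fold of 14.4 and a pileup of 34 in BORIS cells. It also held the highest fold of any SMC1-only region in both lists, its nearest region of another subunit lay 21.3 kb away, and it overlapped a Snf2h region of mutant but not wild-type CH12 cells. At chr2:30775615-30776141 the SMC1 fold was 14.1 in EV and 9.34 in BORIS cells, with pileups of 43 and 28. The remaining leading SMC1-only regions were chr11:100148319-100148719 (pileups of 37 and 30), chr11:77594477-77595080 (43 and 33) and chr5:23224567-23225241 (32 and 30). The SMC1 pileup was thus higher in EV than in BORIS cells at all 5. The pileups of the libraries are not scaled to each other, so no change between the lines is read from this. Of the 5, 3 lay on chromosome 11. That chromosome held 228 of the 2841 SMC1-only regions, or 2.03% of its merged regions, close to the 1.93% over all chromosomes.

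The leading RAD21-only region was chr16:13824842-13825658, 817 bp wide, with a RAD21 fold of 16.7 and a pileup of 61 fragments in EV cells and a fold of 8.51 and a pileup of 25 in BORIS cells. Its summits lay 251 bp apart. At chr15:82060305-82061811, 1507 bp wide, the pileups were 41 in EV and 24 in BORIS cells. These are broad regions, whereas the remaining leading RAD21-only regions were narrow, had summits at most 12 bp apart and had similar pileups in the lines. Their pileups were 20 and 18 at chr13:19198372-19198621, 22 and 19 at chr2:18708087-18708265, and 19 in both lines at chr14:104936045-104936240. At the first of these the local background was at the lowest value of both lists.

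The leading SMC3-only regions were weaker and narrow, between 156 and 207 bp wide. At chr1:143537940-143538144 the SMC3 fold was 8.87 in EV and 11.4 in BORIS cells, with pileups of 17 and 22 fragments. This region was remote, with the nearest region of another subunit 320.3 kb away. The pileups were 19 and 18 at chr2:71880277-71880445, 20 and 19 at chr17:29653274-29653433, 21 in both lines at chr4:62140709-62140915, and 17 and 15 at chr11:93553007-93553162. Between the lines the SMC3 pileups differed by at most 5 fragments at these 5 regions, counts that are too low to resolve a difference of that size.

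The weakest members had calls near the threshold of the lists. The weakest SMC1-only region, at chr14:14793697-14793996, had a −log10 q of 6.03 in EV and 1.32 in BORIS cells, and a region of another subunit lay 93 bp away. The weakest RAD21-only region was chr2:77783966-77784131 (−log10 q of 1.41 and 5.38), and the weakest SMC3-only region was chr13:48628316-48628550 (1.40 and 3.05). Just outside were regions called in both lists of a subunit and in 1 list of another, and 3994 such regions held SMC1, 959 RAD21 and 3242 SMC3 in both lines. The nearest of them, by the additional call, was chr8:113464685-113465025 for SMC1, where SMC3 in BORIS cells had a −log10 q of 1.31 and SMC1 itself one of 12.2 in EV and 6.39 in BORIS cells. For RAD21 it was chr3:61963008-61963268, with SMC3 in EV cells at 1.52 and RAD21 itself at 9.75 and 5.80. For SMC3 it was chr17:85025707-85026056, with RAD21 in EV cells at 1.31 and SMC3 itself at 3.78 and 1.93. The regions outside were thus close to the rule by their additional call, while in the subunit's own lists those for SMC1 and RAD21 were stronger than the weakest members.

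Position relative to fully called cohesin was not used by the rule, other than that members do not touch such a region. The median distance to the nearest region called in all 6 lists was 6810 bp for SMC1-only and 5625 bp for SMC3-only regions, but 12135 bp for RAD21-only regions. Other 2-list regions had a median of 7882.5 bp and 1-list regions one of 7146.5 bp. A region in all 6 lists lay within 5 kb of 42.2% (40.4 to 44.0) of SMC1-only, 46.8% (44.2 to 49.4) of SMC3-only and 31.1% (27.3 to 35.1) of RAD21-only regions, against 40.6% of all merged regions that were not in all 6 lists. Within 1 kb the shares were 16.2%, 19.9% and 11.5%, against 16.4%. Within 20 kb they were 79.0%, 80.2% and 60.1%, against 75%. RAD21-only regions thus lay farther from fully called cohesin at each of these distances, with intervals that do not overlap those of the SMC1-only and SMC3-only regions (for 1 kb, 9.04 to 14.4 against 14.8 to 17.6 and 17.9 to 22.1).

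**Figure D3:**
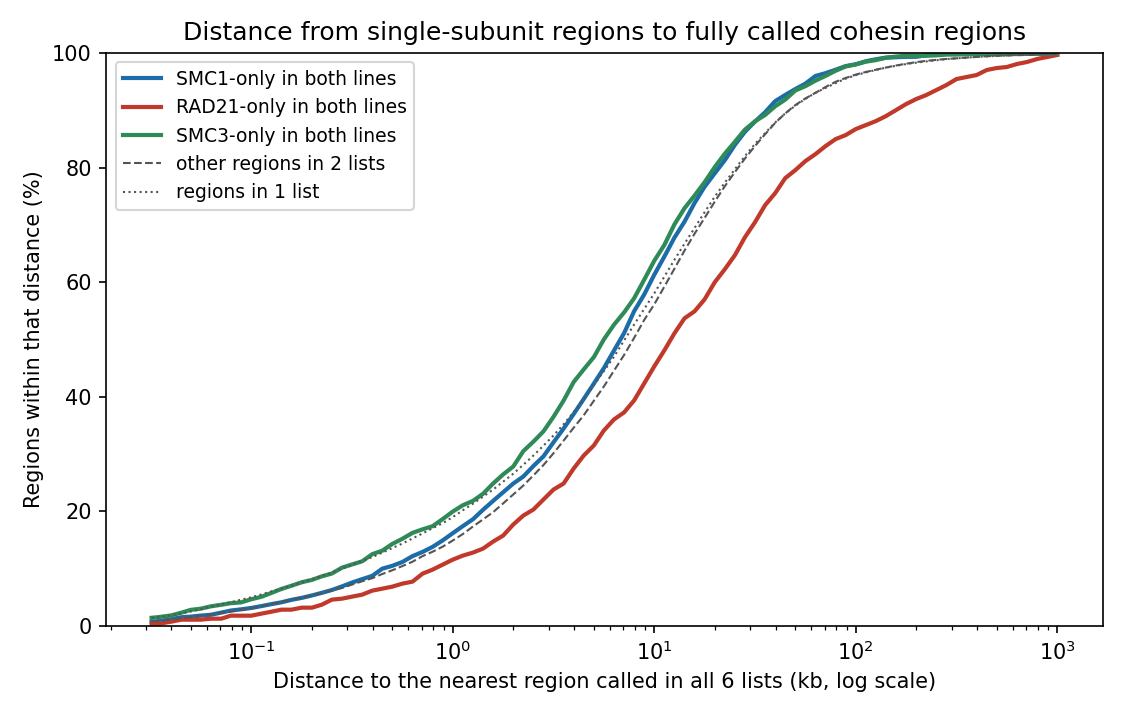
Share of regions (vertical axis, percent) whose nearest region called in all 6 lists lies within a given distance (horizontal axis, kb, log scale), for the single-subunit regions and for other regions in 2 lists or in 1 list. The RAD21-only line runs below the others and reaches 60.1% at 20 kb, where the SMC1-only and SMC3-only lines are at 79.0% and 80.2%.

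Calls of other subunits near the members were compared with those near regions of the same subunit alone in 1 line, a comparison chosen after seeing the data. The nearest region called with another subunit lay a median of 1928 bp from SMC1-only, 2096.5 bp from SMC3-only and 4702.5 bp from RAD21-only regions. Around regions with 1 subunit alone in 1 line the medians were 1962 bp (SMC1), 1970.5 bp (SMC3) and 3135.5 bp (RAD21). The nearest such call lay within 200 bp in 15.8% (14.4 to 17.2) of SMC1-only, 15.8% (13.95 to 17.77) of SMC3-only and 6.47% (4.59 to 8.81) of RAD21-only regions, against 18.1%, 19% and 14.9% of regions with that subunit alone in 1 line. Within 1 kb these shares were 37.8%, 36.6% and 21.3% (18.04 to 24.92), against 38.9%, 38.6% and 30.6%. RAD21-only regions of both lines thus had fewer calls of other subunits nearby than RAD21 regions of 1 line (interval 29.3 to 31.9 within 1 kb), while the shares of SMC1-only and SMC3-only regions were closer to theirs. At 1 kb, SMC1-only regions had an SMC3 call in 35.9% and a RAD21 call in 28.1%, and SMC3-only regions had an SMC1 call in 35.0% and a RAD21 call in 28.6%. RAD21-only regions had an SMC1 call in 18.4% and an SMC3 call in 20.5%. At the other end, no call of another subunit was found within 20 kb of 22.9% (19.5 to 26.6) of RAD21-only regions, against 16% of RAD21 regions of 1 line. The share was 5.63% for SMC1-only and 5.72% for SMC3-only regions, against 7.16% and 8.2%. The SMC1 and SMC3 lists are longer than the RAD21 lists, and the rule requires RAD21-only regions to lie clear of both; the part of list length in these distances was not tested.

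The local background at the summit has a floor in each list, a lowest value shared by many regions, and the share of members at that floor differed between the subunits. In EV cells it was at its lowest value in 62 SMC1-only regions (2.18%, 1.68 to 2.79), against 5.7% of the whole SMC1 list. In BORIS cells this held for 58 (2.04%, 1.55 to 2.63), against 4.77% of the list. Of RAD21-only regions, 119 were at the lowest background in EV cells (20.8%, 17.5 to 24.4), against 6.69% of the RAD21 list, and 107 in BORIS cells (18.7%, 15.6 to 22.1), against 6.47%. Of SMC3-only regions, 85 were in EV cells (5.86%, 4.71 to 7.20), against 5.39%, and 72 in BORIS cells (4.97%, 3.91 to 6.21), against 6.34%. RAD21-only regions therefore had the highest shares, and SMC1-only regions the lowest, in both lines. This order also held with lists of equal length, with regions up to 500 bp apart joined and with calls limited to a −log10 q of 10 or more, alternatives chosen after seeing the data. Under these, the share of RAD21-only regions lay between 18.5% and 24.1%, that of SMC3-only regions between 4.91% and 8.22%, and that of SMC1-only regions between 1.40% and 2.47%. The regions chosen with the limit on q overlapped only 77 SMC1-only, 31 RAD21-only and 17 SMC3-only members, so most were other regions. Local background enters the p-values behind the calls that chose the members, so these shares are a description only.

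Background and position moved together. Within 1 kb of a fully called region the median background of RAD21-only regions was 1.82 in EV and 1.86 in BORIS cells, and beyond 20 kb it was 1.09 and 1.11. For SMC1-only regions these medians were 2.28 and 2.45 within 1 kb, and 1.70 and 1.68 beyond 20 kb. For SMC3-only regions they were 2.20 and 2.10, and 1.34 and 1.39. Beyond 20 kb the lowest background was found in 39.0% of 228 RAD21-only regions in EV cells and 33.8% in BORIS cells, in 16.03% and 12.89% of 287 SMC3-only regions, and in 5.87% of 596 SMC1-only regions in both lines. The order of the subunits thus also held among remote regions. At the fully called regions of roughly like rank (higher in EV cells for SMC1) the shares were 4.21% and 3.80% for RAD21, 4.25% and 3.59% for SMC3, and 5.48% and 5.39% for SMC1.

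**Figure D4:**
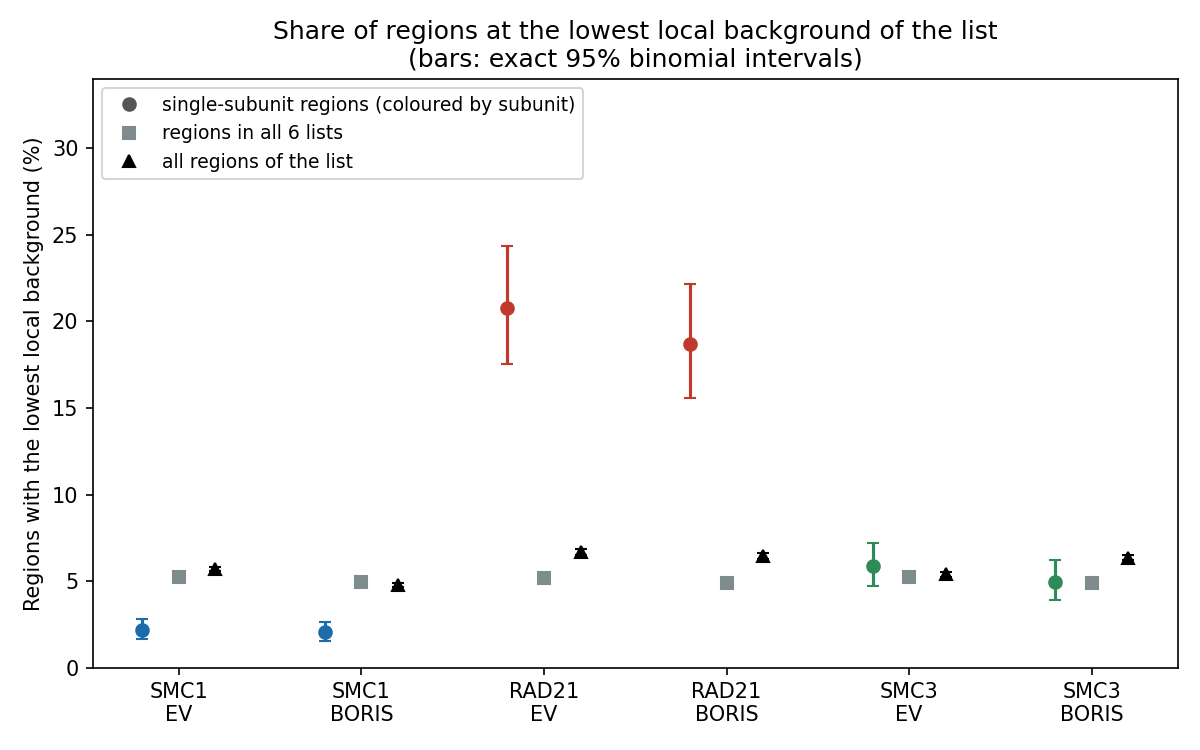
Share of regions whose summit has the lowest local background of the list (vertical axis, percent), in each of the 6 lists, for single-subunit regions (coloured circles), regions called in all 6 lists (squares) and all regions of the list (triangles). Bars are exact 95% binomial intervals. RAD21-only regions stand at 20.8% and 18.7%, and SMC1-only regions at 2.18% and 2.04%.

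Very high background was rare. A local background above 10 was found in 6 RAD21-only regions in each line (1.05%, against 0.197% of the EV list and 0.193% of the BORIS list). Among SMC1-only regions it was found in 2 in EV cells (0.0704%, against 0.156% of the list) and 3 in BORIS cells (0.106%, against 0.164%). Among SMC3-only regions it was found in 1 in each line (0.069%, against 0.170% of the EV list and 0.159% of the BORIS list). The highest pileups among SMC1-only and RAD21-only regions lay in such places. The highest of an SMC1-only region in EV cells was 138 fragments, and that of a RAD21-only region 116, while no SMC3-only region exceeded 30 fragments in EV or 31 in BORIS cells.

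Few single-subunit regions overlapped a Snf2h region of CH12 cells. A wild-type Snf2h region was overlapped, by at least 1 bp, by 54 SMC1-only regions (1.90%, 1.43 to 2.47), 11 RAD21-only regions (1.92%, 0.964 to 3.41) and 18 SMC3-only regions (1.24%, 0.737 to 1.95), against 4.04% of all merged regions. A Snf2h region of the CTCF mutant cells was overlapped by 93 (3.27%, 2.65 to 4.00), 12 (2.10%, 1.09 to 3.64) and 29 (2.00%, 1.34 to 2.86), against 5.63%. Regions in all 6 lists had shares of 8.23% and 10.6%. The other 2-list regions had 1.49% (1.30 to 1.70) and 2.40% (2.16 to 2.66), and 1-list regions 1.31% (1.20 to 1.43) and 2.25% (2.11 to 2.41). The SMC1-only intervals lie above those of the 1-list regions for both Snf2h lists (for wild type, 1.431 against 1.429 at the nearest bounds) and meet those of the other 2-list regions (for the mutant, 2.650 against 2.659). No difference between these classes was tested. Median merged widths were 242 bp for SMC1-only, 187 bp for other 2-list and 139 bp for 1-list regions. Wider regions have more length to overlap with, and the part of width was not tested. CH12 is another cell type than NIH3T3, and the mutant Snf2h list is longer than the wild-type list.

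Weak fully called regions overlapped Snf2h more often for RAD21 and SMC3, in a comparison chosen after seeing the data. Regions in all 6 lists with ranks in the middle 50% of the members' ranks overlapped wild-type Snf2h in 4.00% (3.37 to 4.71) for SMC1, 4.63% (4.16 to 5.15) for RAD21 and 4.60% (3.90 to 5.39) for SMC3. The SMC1-only regions of these ranks overlapped it in 2.17% (1.48 to 3.07), the SMC3-only regions in 1.10% (0.477 to 2.16) and the RAD21-only regions in 1.75% (0.570 to 4.03). Each of these intervals lies below that of the fully called regions, but for SMC1 the fully called regions ranked higher in EV cells, as given above, so that contrast is not between regions of equal strength. Wider regions have more length to overlap with, and the part of width and of rank was not tested. Of SMC1-only regions at least 500 bp wide, 5 of 67 (7.46%, 2.47 to 16.6) overlapped wild-type Snf2h. Of RAD21-only regions of that width, 0 of 35 did, and of SMC3-only regions 0 of 19 did. Taken as 3 counts over the total, in place of an exact interval, the limits these zeros allow are 8.57% and 15.8%, and the upper exact bounds are 10.0% and 17.6%. No share for all merged regions of that width is given here, so whether the wide members are high or low for their width cannot be told. When only calls with a −log10 q of 10 or more entered the merge, the shares overlapping wild-type Snf2h were 2.31% of SMC1-only, 3.63% of RAD21-only and 4.18% of SMC3-only regions, and the regions so chosen were mostly others than the members described here.

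Single-subunit regions were found on every chromosome from 1 to 19. The share of merged regions that were SMC1-only ran from 1.40% on chromosome 12 (1.12 to 1.72) to 2.25% on chromosome 13. On chromosome 14 it was 1.45% (1.14 to 1.81), and chromosomes 12 and 14 were the 2 of 19 whose interval did not include the overall 1.93%. For RAD21-only regions the share ran from 0.241% on chromosome 11 to 0.522% on chromosome 14, and chromosome 11 (0.159 to 0.350) was the only 1 of 19 whose interval did not include 0.389%. For SMC3-only regions it ran from 0.774% on chromosome 14 to 1.23% on chromosome 17, and each interval included 0.987%. The intervals of chromosome 14 included the overall share for both RAD21-only (0.344 to 0.759) and SMC3-only regions (0.553 to 1.05).

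Signal on chromosome 14 ranked lower in BORIS than in EV cells for cohesin as a whole, with smaller median differences for the members. The percentile of each region among all regions called in both lists of its subunit was taken in both lines, and the BORIS value minus the EV value was formed region by region. On chromosome 14 the median of these differences over all such regions was, in percentile points, -10.2 (SMC1), -7.44 (RAD21) and -8.63 (SMC3). For the single-subunit regions there the median differences were -1.36 (75 SMC1-only regions), -1.72 (27 RAD21-only regions) and -0.148 (40 SMC3-only regions). On chromosome 8 the median differences region by region were -6.10 for the SMC1-only and -4.91 for the RAD21-only regions, beside -6.06 and -4.92 for all regions with those subunits, and 0.835 for the SMC3-only regions beside -5.12. Both chromosomes were picked after seeing the data, and others shifted too. For all regions (SMC1, RAD21, SMC3) the medians were -4.64, -3.69 and -3.55 on chromosome 12, and 4.28, 4.01 and 4.00 on chromosome 4. For the members they were -3.49, -2.46 and -0.670 on chromosome 12, and -0.688, -1.72 and 1.70 on chromosome 4. Members ranked low in both lines: on chromosome 14 the median percentile itself, which is another quantity than the median difference, of SMC1-only regions was 16.2 in EV and 13.1 in BORIS cells, beside 56.6 and 39.9 for all regions with SMC1 in both lines. The part of this in the smaller difference was not tested.

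**Figure D5:**
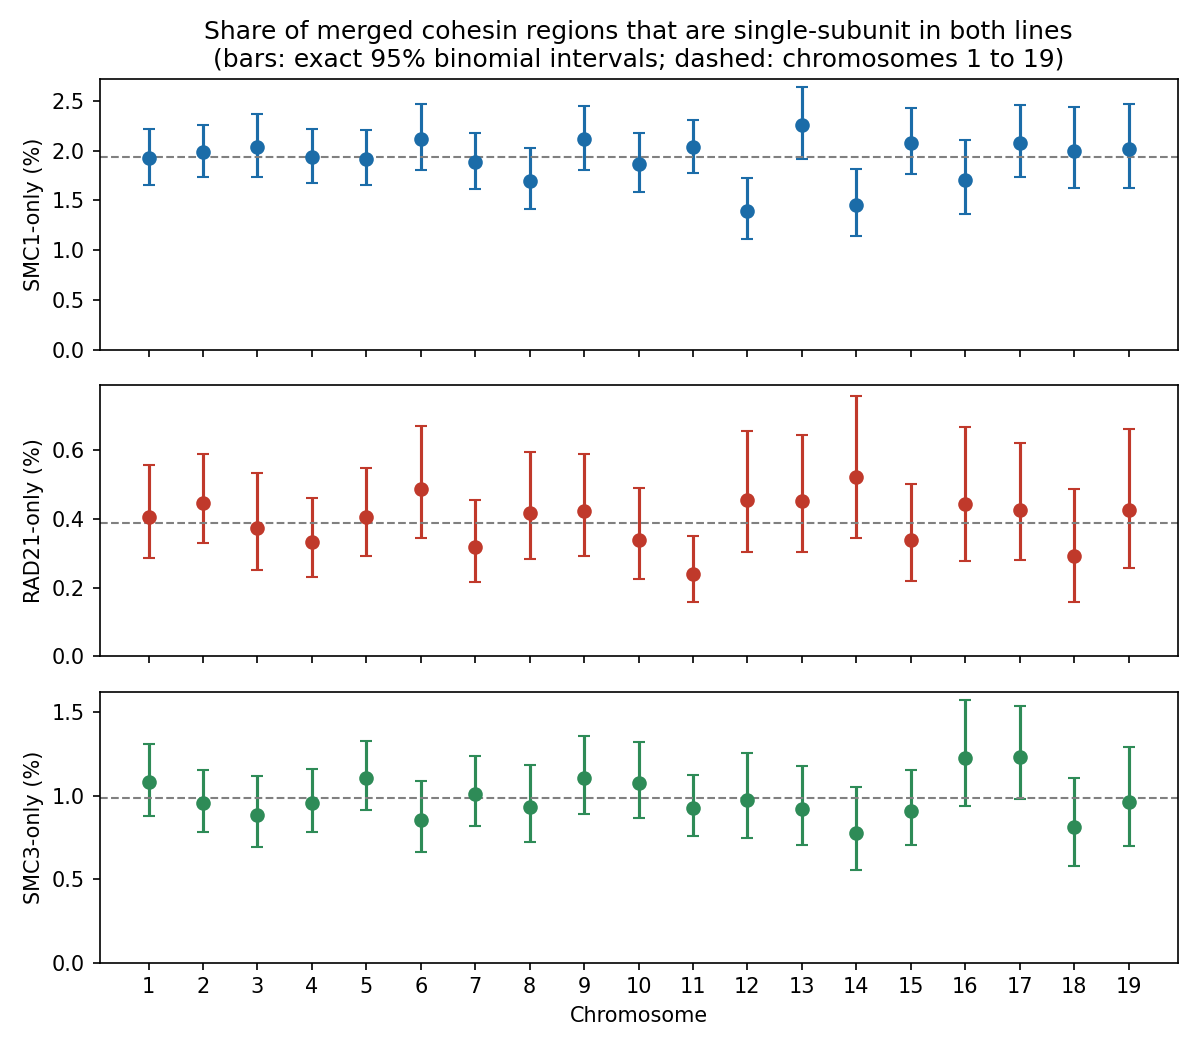
Share of the merged cohesin regions on each chromosome (horizontal axis, 1 to 19) that are SMC1-only, RAD21-only or SMC3-only in both lines (vertical axes, percent, each from 0). Bars are exact 95% binomial intervals and dashed lines the shares over all chromosomes, 1.93%, 0.389% and 0.987%; for SMC1, chromosomes 12 and 14 lie below the line with their whole interval.

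Spacing along the chromosomes followed the number of regions of each kind. The median gap between neighbouring SMC1-only regions was 353 kb, between SMC3-only regions 657 kb and between RAD21-only regions 2208 kb. Gaps of at most 10 kb were found 162 times among SMC1-only (5.74% of gaps), 58 times among SMC3-only (4.05%) and 15 times among RAD21-only regions (2.71%). Of 2401 bins of 1 Mb with any merged region, 1323 held an SMC1-only, 879 an SMC3-only and 467 a RAD21-only region. The fullest bin for SMC1-only regions was 80 to 81 Mb on chromosome 10, where 10 of 249 merged regions were SMC1-only (4.02%, 1.94 to 7.26). For RAD21-only regions it was 78 to 79 Mb on chromosome 15, with 5 of 207 (2.42%, 0.789 to 5.55), and for SMC3-only regions it was 126 to 127 Mb on chromosome 10, with 7 of 175 (4.00%, 1.62 to 8.07), beside 32 to 33 Mb on chromosome 5, with 7 of 143. Whether the members were more clustered or more dispersed than other cohesin regions was not tested.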

How the data were processed

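Peak lists of 8 ChIP-seq samples (6 cohesin lists from NIH3T3 cells, 2 Snf2h lists from CH12 cells) were used as deposited, and the other samples were not used here. The labels put each sample in a group of its own. The files are in narrowPeak layout (10 columns) without a header line. Per the submitters' processing notes the tools were Bowtie, Bowtie2, SAMtools, MACS2 and deepTools 3.5.0 and the builds mm9 and hg19, with no roles; the settings, the control and any pooling are not given in the sources used here. Coordinates on chromosome 1 reach 197182423, past the last gene end of GRCm38 there (195291439), so they are read as mm9 and counted from 1. No genome or annotation of that build was used, so genes, sequences and motifs were not analysed here.

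The authors deposited a score, a fold (the ratio of signal to local background), a p-value as −log10 p, a q-value as −log10 q and the summit position for each region; these values were used only within their own list. The authors' score was not used. Each list is 1 library.

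The lists were merged over chromosomes 1 to 19 (overlapping or touching regions joined) with Python 3.11.15, numpy 2.4.6, pandas 2.3.3 and scipy 1.17.1. The strongest peak of each list in a merged region gave its values. Pileup and background were solved from fold, as (pileup + 1) over (background + 1), and −log10 p, as a Poisson tail; the solved pileup was a whole number, to within 0.001 in −log10 p, at 100% of summits. The merge, the distances and this step were tested on simulated data. Shares carry exact Clopper-Pearson intervals (95%), and a count of 0 allows up to 3 counts. The named regions were the 5 of each subunit with the highest lower percentile of −log10 p, of up to 3 kb and without another subunit's region within 1 kb, chromosome 18 left out, plus the weakest member of each subunit and the nearest 3-list region outside. The regions and lists were chosen with earlier results of these data known. Alternatives were a minimum −log10 q of 10, equal list lengths, joining up to 500 bp, joining summits within 200 bp, leaving out each other antibody, adding chromosome X, other distances and other Snf2h overlaps.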

Additional observations from a re-analysis of the deposited data

How the results depend on the processing

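Limits: each group had 1 library, so no alternative shows how replicates would vary, and fragment counts of 10 to 18 over the middle 50% of summits limit what can be told apart. No paired analysis was possible because each group has 1 library and the labels give no replicate numbers that groups share. Of 111 alternative values, 40 stayed within 1.5 times the main count or inside the main interval and 71 moved beyond that; these values carry no sign that could reverse.

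With lists of equal length the counts were 1815 SMC1-only, 1218 RAD21-only and 791 SMC3-only regions (main 2841, 572 and 1450), which reverses the order of the last pair, and shorter lists hold fewer weak calls by construction. They made up 1.48%, 0.996% and 0.647% of merged regions; 2.27% and 2.26% of the SMC1 lists (EV, BORIS), 1.53% and 1.54% of the RAD21 lists and 0.992% and 0.989% of the SMC3 lists. With calls limited before merging to a −log10 q of 10 or more there were 2077, 441 and 693 regions (2.64%, 0.561% and 0.882% of merged regions; 3.73% and 4.14%, 0.937% and 1.04%, and 1.299% and 1.269% of the lists), of which 77, 31 and 17 overlapped main members, so these were largely different regions. The same 77, 31 and 17 remained when both calls of a member had to reach that value against the lists as deposited. With regions up to 500 bp apart joined the shares of merged regions were 1.71% for SMC1-only and 0.867% for SMC3-only, and those of the lists 2.17% and 2.22%, 0.636% and 0.629%, and 1.13% and 1.06%. Without the SMC3 lists there were 8916 SMC1-only and 1744 RAD21-only regions, without the SMC1 lists 1031 RAD21-only and 6560 SMC3-only, and without the RAD21 lists 2810 SMC3-only. Joined summits, chromosome X and leaving out chromosomes 8, 12 and 14 (chosen after seeing the data) kept all 3 counts within 1.5 times.

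Median summit distances with that limit were 32 bp (SMC1), 14 bp (RAD21) and 17 bp (SMC3), with equal lengths 37 bp (SMC1) and 22 bp (SMC3), and with 500 bp joining 45.5 bp (SMC1) and 26 bp (SMC3). The share with a region of all 6 lists within 5 kb was 23.2%, 17.5% and 25.7% with that limit on q, and 34.4%, 24.1% and 37.0% with 500 bp joining. With equal lengths it was 36.5% (SMC1), 30.4% (RAD21) and 38.7% (SMC3), so RAD21-only regions had the lowest share in each. Within 1 kb it was 16.2%, 11.5% and 19.9%, and within 20 kb 79.0%, 60.1% and 80.2%, as the distance itself sets. Overlap with Snf2h moved to 3.27% (SMC1) and 2.00% (SMC3) with the mutant list, to 1.13% (SMC1) when a summit had to lie inside, to 3.63% (RAD21) and 4.18% (SMC3) with that limit on q, and to 7.46%, 0% and 0% among regions at least 500 bp wide, a class chosen after seeing the data. The cause of these moves was not tested unless given.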
